A study of Homo sapiens with 6 samples.

Results

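Claudins and tight junction genes were examined in SKBR3 cells, a HER2-positive human breast adenocarcinoma line, after overexpression of cortactin (CTTN), an actin-binding protein. The members were chosen by gene name: the claudins CLDN1, CLDN3, CLDN4, CLDN7 and CLDN12, occludin (OCLN), the scaffold proteins TJP1 and TJP3, and the junctional adhesion molecule F11R, which make 9 genes of the 54644 gene rows in the tables. The 3 control libraries came from stable SKBR3 cells carrying the empty lentiviral vector (pLVX vector), and the 3 CTTN libraries from stable SKBR3 cells carrying the same vector with CTTN cDNA (pLVX-CTTN). Lentiviral infection and puromycin selection were common to both groups, and the 3 samples of a group were described as biological replicates. Whether each stable line was a pool or 1 clone is not given in the sources used here, and the promoter that drives the cDNA was not given either. RNA was measured by poly(A)-selected RNA-seq of whole cultures, so fewer cells of a type and less RNA per cell cannot be told apart.

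Tight junctions seal the space between neighbouring epithelial cells at the apical end of the lateral membrane. Claudins are small membrane proteins that form the strands of the seal and set which ions and solutes pass, with some family members tightening the barrier and others opening pores. Occludin and F11R (JAM-A) are further membrane proteins of the strand region, and TJP1 (ZO-1) and TJP3 (ZO-3) are PDZ-domain scaffolds that hold claudin tails against the actin cytoskeleton, on which cortactin also acts. In breast cancer, expression of claudins and other junction genes is used to describe how epithelial a tumour cell is, and members of the SNAI and ZEB families of repressors are known to act through E-box sites (CAGGTG) in promoters of junction genes.

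The 5 member claudins lie at 4 chromosomal positions in GRCh38. CLDN3 (chromosome 7, 73768997 to 73770270) and CLDN4 (chromosome 7, 73799542 to 73832693) are neighbours, CLDN12 lies on the same chromosome within a locus from 90335223 to 91210590, CLDN1 on chromosome 3 (190305701 to 190322475) and CLDN7 on chromosome 17 within a locus from 7240014 to 7263983. OCLN is on chromosome 5 (69477472 to 69558104), TJP1 on chromosome 15 (29699367 to 29968865), TJP3 on chromosome 19 (3708109 to 3750813) and F11R on chromosome 1 within a locus from 160995211 to 161038990. The loci of CLDN7, CLDN12 and F11R each held further gene names in the same row. For these 3 genes the isoforms that carried the gene's own name were therefore also summed, and both values are given.

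Promoter sequence was available for 8 of the 9 genes, in 14 windows of 250 bases that end at a RefSeq start site (RefSeq, GRCh38.p14). The windows of CLDN1, CLDN4 and CLDN7 are shown because CLDN1 was the member that passed the test and CLDN4 and CLDN7 are the most abundant claudins. Each is written 5′ to 3′ on the strand of the gene, with E-box letters (CAGGTG, or CACCTG for the other strand) in capitals.
CLDN1, minus strand, chr3:190322447-190322696: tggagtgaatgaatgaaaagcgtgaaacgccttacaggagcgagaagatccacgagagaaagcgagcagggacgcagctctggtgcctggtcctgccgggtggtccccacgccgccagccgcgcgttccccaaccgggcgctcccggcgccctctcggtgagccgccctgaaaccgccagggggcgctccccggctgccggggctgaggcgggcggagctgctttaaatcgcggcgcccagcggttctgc
CLDN4, plus strand, chr7:73830746-73830995: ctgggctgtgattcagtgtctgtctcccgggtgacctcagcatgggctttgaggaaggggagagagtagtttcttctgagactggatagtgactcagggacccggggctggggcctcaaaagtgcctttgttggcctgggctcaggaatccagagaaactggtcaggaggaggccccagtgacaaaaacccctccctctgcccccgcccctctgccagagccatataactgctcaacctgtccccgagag
CLDN7, minus strand, chr17:7262479-7262728: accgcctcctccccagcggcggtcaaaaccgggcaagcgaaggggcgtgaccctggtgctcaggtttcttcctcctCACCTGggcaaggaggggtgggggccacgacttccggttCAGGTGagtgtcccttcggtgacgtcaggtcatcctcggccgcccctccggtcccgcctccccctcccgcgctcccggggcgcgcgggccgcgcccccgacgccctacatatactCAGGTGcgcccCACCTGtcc
The CLDN1 and CLDN4 windows held no E-box and the CLDN7 window held 4, while a second CLDN7 window that ends at another start site (chr17:7263214-7263463) held none. Over the members, 5 of the 14 windows, from 4 genes (CLDN7, OCLN, TJP1 and TJP3), held at least 1 E-box, against 17.5% of all 35116 promoter windows of this length. The GC box GGGCGG (or CCGCCC), to which SP1-family factors bind, was in 10 of the 14 windows, against 42.6% of all windows. An E-box and a GC box can share a letter at their ends. The Grainyhead palindrome AACCGGTT was in 0 of the 14 windows and in 0.117% of all windows. These are letter matches, and binding was not measured here.

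The deposited estimated counts, already divided by a size factor, summed to between 35695300 and 39318400 per library. Multiplied back by the size factor, they summed to between 34887100 (control replicate 1) and 41279700 (control replicate 2). CTTN itself, an actin-binding protein and the overexpressed gene, was read first as a check of the labels. Its level in CPM (estimated counts scaled to a common library size, edgeR's unit) was 793, 1011 and 520 in the CTTN libraries and 299, 307 and 306 in the control libraries. Every CTTN library lay above every control library, the fold was 2.55, and the log2 fold change of 1.35 ± 0.22 (SE, n = 3 against 3) passed the test (edgeR quasi-likelihood, adjusted p = 0.025). CTTN was higher under all 17 alternatives, by 1.1 to 1.57 on the log2 scale, but lost the call under 9 of them: with each limma fit, without CTTN replicate 1, without any control library (1 of these fits counts a second time as the one with the control columns that the labels name) and with the replicate block, at adjusted p between 0.056 and 0.15. Luminal and HER2 markers were high in all libraries: ERBB2, the HER2 receptor, had a mean FPKM (fragments per kilobase of transcript, scaled to library size) of 1739 in CTTN and 1675 in control, and the summed FPKM of 6 luminal markers ran from 6703 to 10406 in CTTN and from 7354 to 7625 in control. Of 14 markers of other cell types, 11 stayed under 1 FPKM in every library, and the sum of the 14 was 13.3 to 14.3 FPKM in CTTN and 12.5 to 13.8 FPKM in control.

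CTTN replicates 1 and 3 stood apart from the other 4 libraries by transcript length. Relative to the control mean, the median gene under 1000 bases was at a log2 level of 0.34 in CTTN replicate 1 and 0.79 in CTTN replicate 3, and the median gene over 6000 bases at -0.42 and -0.76. In CTTN replicate 2, which had the highest CTTN level, the same medians were 0.01 and -0.003. The members span 1274 bases (CLDN3) to 6736 bases (TJP1), so each was also set beside the median of all genes within 10% of its own length and fitted with the length trend removed from each library, a fit added after the data were seen. The cause of this trend was not tested.

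In the control cells the levels per length of the 9 genes covered a wide range. CLDN7 had the highest level, 241 ± 7.91 FPKM (SD, n = 3, isoforms under the gene's own name), which was above 97.3% of the 12571 gene names at or above 1 FPKM. CLDN4 followed with 197 ± 9.78 FPKM, F11R with 57.4 ± 0.778 FPKM, CLDN3 with 29.5 ± 0.614 FPKM and TJP3 with 20.7 ± 1.65 FPKM. TJP1 had 13.6 ± 0.327 FPKM, CLDN12 11.2 ± 0.726 FPKM, OCLN 8.59 ± 0.540 FPKM and CLDN1, the least abundant, 4.31 ± 0.469 FPKM. No neighbours in this order overlapped in their ranges over the control libraries. The step from CLDN4 to F11R was the largest, with 3.43 times the level, and the smallest was the step from TJP1 to CLDN12, with 1.22 times. The family was narrow: of 24 claudin names in the tables, 15 stayed under 1 FPKM in every library, among them CLDN2 of leaky kidney and gut epithelia, CLDN5 of endothelium and CLDN18 of lung and stomach, which were named after their values were seen.

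**Figure D1:**
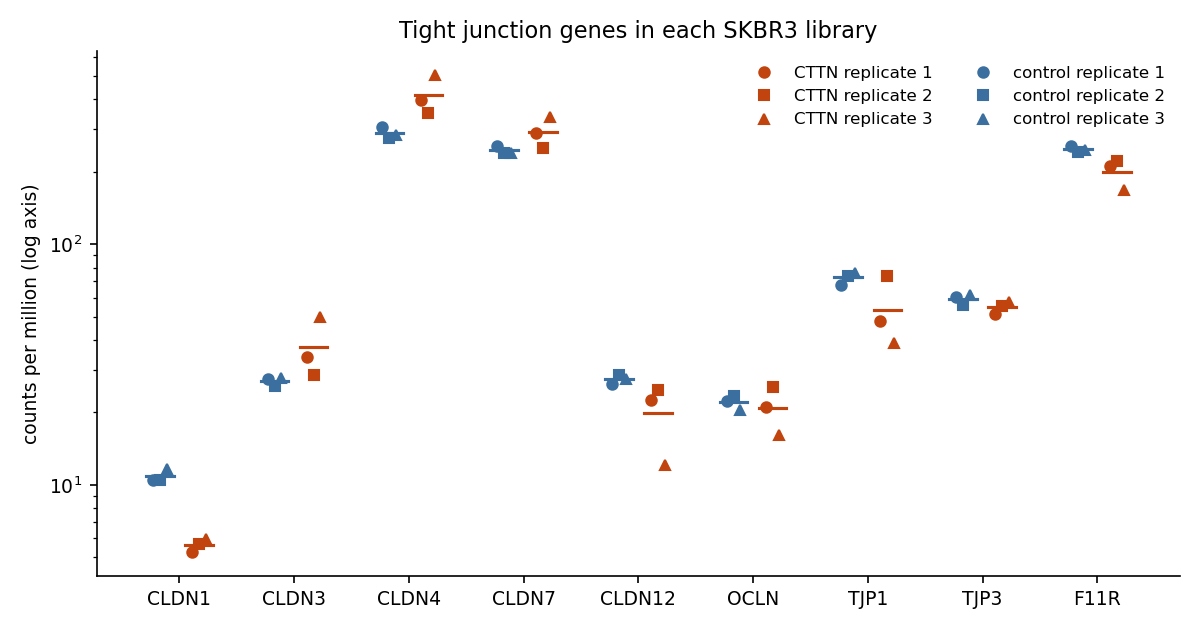
CPM on a log axis for each of the 9 genes (isoforms under the gene's own name summed), with 1 point per library (shape gives the replicate number) and a line at each group's mean. CLDN1 sits at 5.26 to 5.98 in CTTN (red) and at 10.4 to 11.7 in control (blue), and CTTN replicate 3 is the CTTN library farthest from the control mean for CLDN3, CLDN4, CLDN7, CLDN12, OCLN, TJP1 and F11R.

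CLDN1, a barrier-forming claudin required for the water barrier of the skin, was the only gene of the 9 that passed the test, and it was lower in the CTTN cells. Across all 14433 gene rows tested, 4.2% passed, with 2.29% higher and 1.91% lower in CTTN, and 3.2% passed with a change of at least 1.5-fold, as CLDN1 did. Of all own-name sums 3.03% passed, and CLDN1 was again the 1 of the 9. CLDN1 had 5.29, 5.66 and 5.99 CPM in the CTTN libraries and 10.5, 10.5 and 11.6 CPM in the control libraries. All 3 CTTN libraries were below all 3 control libraries, and the spread within each group was small beside the gap. The underlying estimated counts were 194, 208 and 219 in CTTN and 382, 383 and 427 in control, at a log2 fold change of -0.94 ± 0.10 (SE, n = 3 against 3, 0.521 times the control level, edgeR adjusted p = 0.0079). CLDN1 is 3479 bases long, and genes of like length were at a median log2 level of -0.07, 0.0018 and -0.16 in the 3 CTTN libraries where CLDN1 was at -0.98, -0.87 and -0.81. With the length trend removed the difference was -0.81 ± 0.12 (SE, adjusted p = 0.0045). The call depended on which library was left out. It held without CTTN replicate 2 (-0.95, edgeR adjusted p = 0.0015) and without CTTN replicate 3 (-0.99, adjusted p = 0.0016). Without CTTN replicate 1 the log2 fold change was -0.90 with an edgeR adjusted p of 0.072, and without any 1 control library it was between -0.97 and -0.89 with adjusted p between 0.060 and 0.070.

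CLDN4 is a sealing claudin that binds Clostridium perfringens enterotoxin together with CLDN3, and both had a higher CPM in every CTTN library than in any control library. CLDN4 had 399, 351 and 509 CPM in CTTN and 308, 275 and 282 CPM in control. The groups did not overlap, CTTN replicate 3 was highest, and the log2 fold change was 0.54 ± 0.14 (SE, 1.45-fold), which did not pass the test in the fit of all libraries (edgeR adjusted p = 0.077). It did pass with the length trend removed (0.41 ± 0.09, adjusted p = 0.024, where 14.4% of all genes passed) and by DESeq2 (0.53, adjusted p = 0.013, where 13.8% passed). CLDN3 had 34.1, 28.4 and 50.2 CPM in CTTN and 27.6, 25.7 and 27.8 CPM in control. CTTN replicate 2 lay just above the highest control, and CTTN replicate 3 far above it. In FPKM the groups overlapped, with CTTN replicate 2 at 28.8 and the controls at 29.2 to 30.3. The log2 fold change of CLDN3 was 0.47 ± 0.20 (SE, edgeR adjusted p = 0.16), and it was 0.19 ± 0.11 with the length trend removed (adjusted p = 0.23). At 1274 bases CLDN3 is the shortest of the 9, and genes of its length were at a median log2 level of 0.28, 0.02 and 0.60 in the 3 CTTN libraries, where CLDN3 was at 0.32, 0.07 and 0.87.

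CLDN7, a claudin abundant in secretory and breast epithelium that also binds EPCAM, had 514, 436 and 622 CPM in CTTN and 452, 422 and 426 CPM in control for its row, which it shares with 4 other gene names, among them GABARAP and CTDNEP1. Isoforms named CLDN7 held 56.3% of the row's counts, with 290, 250 and 338 CPM in CTTN and 256, 240 and 240 CPM in control. The groups overlapped on both measures, with CTTN replicate 2 among the controls. The log2 fold change was 0.27 ± 0.13 (SE, edgeR adjusted p = 0.20) for the row and 0.25 ± 0.12 (adjusted p = 0.20) for the own-name sum, and 0.04 ± 0.05 for the own-name sum with the length trend removed (adjusted p = 0.63). The departure of CLDN7 from control in the 3 CTTN libraries, 0.24, 0.03 and 0.46 on the log2 scale, stood beside a median of 0.23, 0.02 and 0.51 for genes of its length.

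CLDN12, a claudin linked to calcium transport across gut epithelium, shares its row with 4 other gene names, and isoforms named CLDN12 held 40.9% of the row's counts. The row had 58.5, 56.7 and 51.5 CPM in CTTN and 59.2, 61.2 and 56.0 CPM in control, which overlap, with a log2 fold change of -0.08 ± 0.09 (SE, edgeR adjusted p = 0.51). Under the gene's own name it had 22.6, 24.7 and 12.1 CPM in CTTN and 26.3, 28.5 and 27.4 CPM in control. These groups did not overlap, but the low mean in CTTN rested mostly on replicate 3. The own-name log2 fold change was -0.47 ± 0.25 (SE, adjusted p = 0.23), and it was -0.22 without CTTN replicate 3 (adjusted p = 0.16) and -0.66 without CTTN replicate 2 (adjusted p = 0.045). With the length trend removed the own-name value was -0.37 ± 0.17 (SE, edgeR adjusted p = 0.19), while that of the row was 0.16 ± 0.10 (adjusted p = 0.27).

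The 5 claudins together were dominated by CLDN7 and CLDN4. Their summed own-name FPKM was 611, 501 and 747 in CTTN (620 ± 123, SD, n = 3) and 503, 472 and 474 in control (483 ± 17.5). CTTN replicate 2 was within the control range, and the difference of 137 FPKM had a p of 0.20 in an exact two-sided permutation test. With 3 against 3 the smallest p is 0.10, so no difference could pass 0.05 in this test. The difference was 73.7 FPKM without CTTN replicate 3 and 197 FPKM without CTTN replicate 2. Summed in CPM, the claudins were at 749, 662 and 912 in CTTN and 627, 581 and 591 in control, so the groups did not overlap and the exact permutation p was 0.10, the smallest possible. Shares of the sum are not changed by library depth. The CLDN4 share was 45.9%, 46.0% and 49.1% in CTTN and 41.3%, 40.6% and 40.2% in control, so CTTN was above control in all libraries, replicate 2 included. The CLDN7 share was 45.8%, 45.7% and 41.7% in CTTN and 49.8%, 50.0% and 50.1% in control, below in all. CLDN1 made 0.353% ± 0.10 (SD, n = 3) of claudin FPKM in CTTN and 0.894% ± 0.116 in control. The ratio of CLDN4 to CLDN1 in CPM was 75.5, 61.9 and 84.8 in CTTN and 29.5, 26.3 and 24.3 in control, while the ratio of CLDN4 to its neighbour CLDN3 was 11.7, 12.4 and 10.1 in CTTN and 11.2, 10.7 and 10.2 in control and overlapped. The shares and ratios were looked at after the levels were known and were not tested.

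**Figure D2:**
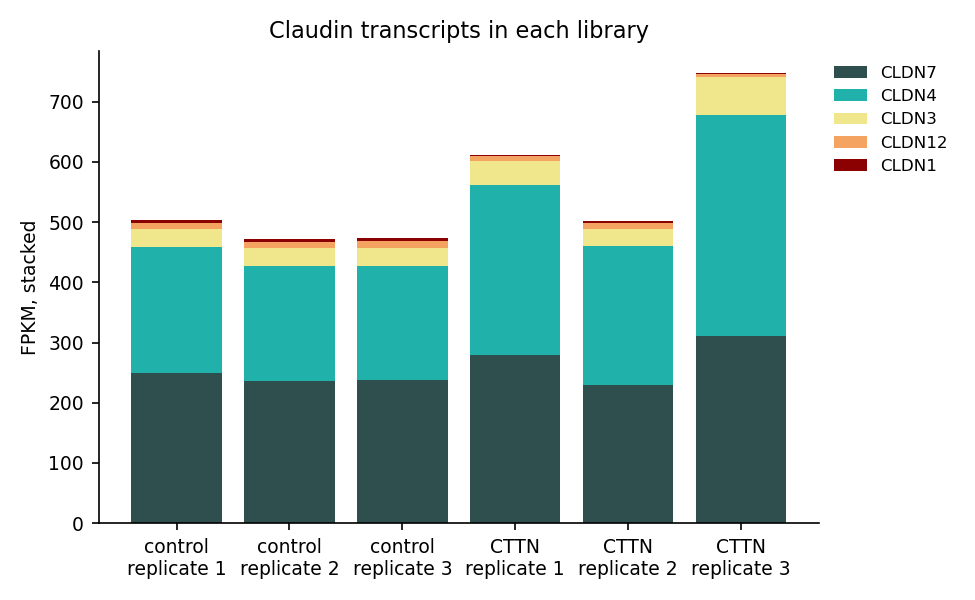
Stacked FPKM (vertical axis) of the 5 claudins, isoforms under the gene's own name, in each of the 6 libraries. The bars reach 472 to 503 FPKM in control and 501 to 747 FPKM in CTTN, CLDN7 is the largest band in control, and CLDN4 is the largest band in CTTN, narrowly in replicates 1 and 2.

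Occludin (OCLN), a MARVEL-domain strand protein, had 21.2, 25.4 and 16.2 CPM in CTTN and 22.5, 23.4 and 20.3 CPM in control. The CTTN libraries lay on both sides of the controls, and the log2 fold change was -0.08 ± 0.16 (SE, edgeR adjusted p = 0.76) and turned to 0.10 ± 0.09 with the length trend removed (adjusted p = 0.44). F11R, an immunoglobulin-type adhesion protein that recruits polarity proteins, shares its row with TSTD1 and 1 further name. The row had 323, 302 and 339 CPM in CTTN and 326, 319 and 316 CPM in control, at a log2 fold change of 0.01 ± 0.08 (SE, adjusted p = 0.96). Isoforms named F11R held 70.0% of the row's counts and had 212, 222 and 168 CPM in CTTN and 255, 242 and 246 CPM in control. On this measure the groups did not overlap, the log2 fold change was -0.31 ± 0.12 (SE, edgeR adjusted p = 0.15), and it fell to -0.06 ± 0.07 with the length trend removed (adjusted p = 0.58). The other large part of the row, TSTD1, was at a mean of 257 FPKM in CTTN and 159 FPKM in control (log2 fold change 0.66 ± 0.22, SE, adjusted p = 0.12), opposite in sign to F11R.

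The scaffolds did not pass the test either. TJP1 (ZO-1), which links claudins, occludin and F11R to actin, had 48.1, 73.2 and 39.0 CPM in CTTN and 68.2, 73.8 and 75.9 CPM in control. CTTN replicate 2 was at the control level and the other 2 CTTN libraries were well below it. The log2 fold change was -0.44 ± 0.22 (SE, edgeR adjusted p = 0.20) and -0.10 ± 0.07 with the length trend removed (adjusted p = 0.33). TJP1 is the longest of the 9, and genes of its length were at -0.35, -0.01 and -0.67 in the 3 CTTN libraries, where TJP1 was at -0.60, 0.02 and -0.89. TJP3 (ZO-3), a scaffold of epithelial junctions, had 51.7, 55.1 and 58.0 CPM in CTTN and 60.6, 55.5 and 61.1 CPM in control, which overlap (log2 fold change -0.11 ± 0.09, SE, adjusted p = 0.40).

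**Figure D3:**
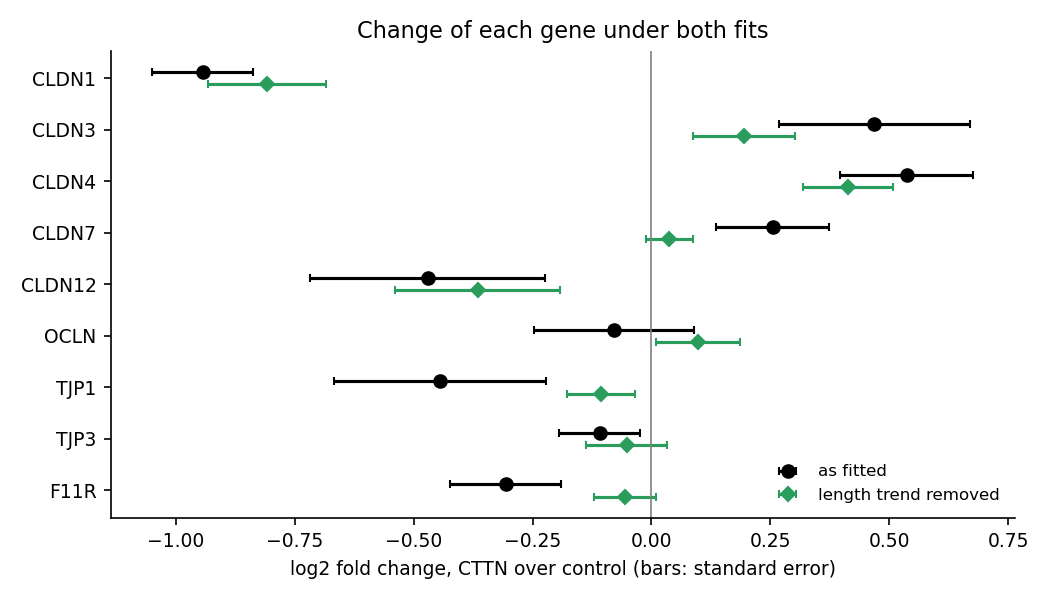
Log2 fold change of CTTN over control (horizontal axis, bars are the standard error, n = 3 against 3) for each of the 9 genes (isoforms under the gene's own name summed), as fitted (black circles) and with the length trend removed (green diamonds). CLDN1 stays near its value, from -0.94 to -0.81, while TJP1 moves from -0.44 to -0.11, F11R from -0.31 to -0.06 and CLDN7 from 0.25 to 0.04.

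Counted over own-name CPM, 2 of the 9 genes (CLDN3 and CLDN4) lay above control in every CTTN library and 3 (CLDN1, CLDN12 and F11R) below, against 19.3% and 18.4% of all 15581 own-name sums tested. The number of genes called moved strongly with CTTN replicate 2. Without it, 5 of the 9 gene rows passed the edgeR test (CLDN3 0.63, CLDN4 0.65 and CLDN7 0.38 higher, CLDN1 -0.95 and TJP1 -0.74 lower, all log2), but so did 47.2% of all gene rows. The own-name sums of CLDN12 (-0.66), F11R (-0.39) and CLDN7 (0.36) also passed without it, as did 44.3% of all own-name sums. Without CTTN replicate 1, 0 of the 9 and 0.123% of all gene rows passed, and without CTTN replicate 3 CLDN1 and CLDN4 passed among 8.54%.

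At the level of single transcripts, 79 isoforms carried a member's name, 31 of them had enough counts to test, and 0 passed edgeR. Of all 58275 isoforms tested 0 passed as well, with 6.24% at an unadjusted p under 0.05 (4 of the 31 members' isoforms), and DESeq2 called 1074 isoforms (1.26%), of which 1 was a member's, the main CLDN1 transcript. That transcript, ENST00000295522, carried between 96.6% and 100% of CLDN1 FPKM in each library, with 1.96, 2.33 and 2.04 FPKM in CTTN and 4.02, 4.05 and 4.68 FPKM in control. CLDN4 was likewise almost all 1 transcript, ENST00000340958, at 278, 226 and 365 FPKM in CTTN and 205, 188 and 187 FPKM in control. CLDN7 was split over several, of which the largest, ENST00000360325, held 67.2%, 72.5% and 70.2% of its FPKM in CTTN and 66.2%, 66.0% and 64.0% in control, and its FPKM was 188, 166 and 219 in CTTN and 166, 156 and 152 in control. CLDN3 had a single transcript. F11R was almost all ENST00000368026, at 46.0, 49.7 and 34.6 FPKM in CTTN and 56.4, 53.0 and 55.0 FPKM in control.

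Some isoform estimates of TJP1, CLDN12 and TJP3 differed widely among the CTTN libraries. For TJP1, ENST00000614355 was at 0.533, 4.56 and 0.067 FPKM in CTTN and at 3.06, 2.88 and 3.23 FPKM in control, so CTTN replicate 2 was above the controls and the other 2 CTTN libraries far below. TJP1 ENST00000356107 was lower in each CTTN library, at 3.38, 3.13 and 2.00 FPKM against 4.06, 4.28 and 4.87 FPKM (edgeR adjusted p = 0.77). For CLDN12, ENST00000287916 was at 3.67, 7.12 and 0.660 FPKM in CTTN and 5.67, 7.60 and 6.25 FPKM in control, and ENST00000394605 was at 3.63, 2.70 and 3.16 against 4.05, 2.74 and 4.05 FPKM. The drop of CLDN12 in CTTN replicate 3 therefore lay in the first of these transcripts. For TJP3, a short transcript of 680 bases, ENST00000586032, was at 2.61, 0.954 and 17.3 FPKM in CTTN and under 1 FPKM in all controls, the highest of which was at 0.524 FPKM (edgeR adjusted p = 0.77). Its start-site group was 1 of 2 members' groups called by DESeq2 (adjusted p = 0.049, where 1.85% of all groups passed), the other being that of CLDN1. By edgeR 0 of 35916 start-site groups were called, with 10.4% at an unadjusted p under 0.05 (6 of the 26 members' groups tested). The main TJP3 transcript, ENST00000589378, was at 13.2, 12.2 and 9.26 FPKM in CTTN and 14.5, 13.2 and 12.5 FPKM in control. TJP3 FPKM of the gene, 20.5, 18.8 and 39.4 in CTTN and 22.0, 18.8 and 21.2 in control, was high in CTTN replicate 3 where its CPM was not.

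Of 5 partners of claudins and proteases of the junction, 5 were tested and 1 passed the edgeR test, which is not reported here. The CLDN7 partner EPCAM and the protease matriptase (ST14) with its inhibitors SPINT1 and SPINT2 had log2 fold changes from 0.08 to 0.30 and did not pass. Of 21 further claudin and claudin-domain genes 6 could be tested and 0 passed, with a median log2 fold change of 0.24 beside 0.01 over all 14433 genes, which was 0.04 with the length trend removed. CLDN15, a pore-forming claudin, was the most abundant true claudin among them at a mean of 6.70 FPKM in CTTN and 5.29 FPKM in control. Of 13 other membrane proteins of the tight junction 7 were tested and 0 passed (median 0.08), led by the tricellular protein LSR at 77.8 and 60.5 FPKM (log2 fold change 0.30 ± 0.14, SE, adjusted p = 0.19).

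Of 30 scaffold and polarity genes 29 were tested and 0 passed, at a median log2 fold change of -0.17. It was 0.06 with the length trend removed, where 1 gene was called higher and 1 lower. The most abundant were VAPA, which binds occludin, at 123 FPKM in CTTN and 125 FPKM in control, and YBX3 (ZONAB), a transcription factor held by ZO-1, at 70.6 and 58.2 FPKM. Of 11 adherens junction genes 9 were tested and 0 passed (median -0.14, and 0.06 with the length trend removed, where 1 was called higher and 2 lower). Of 15 desmosome genes 10 were tested and 0 passed (median -0.31, and -0.01 with the length trend removed, where 2 were called higher and 1 lower). The most abundant of these, the catenins CTNND1 (in a row shared with TMX2, SELENOH and other names), JUP and CTNNA1, had log2 fold changes of -0.14, 0.32 and -0.27, and the plakophilin PKP3 0.41. JUP and PKP3 lay above control in every CTTN library and passed with the length trend removed (0.42 and 0.43, edgeR adjusted p = 0.020 and 0.019). AFDN, VCL and DSG2, named after their values were seen, lay below control in every CTTN library. They passed as lower in the same fit (-0.25, -0.25 and -0.31, edgeR adjusted p = 0.042, 0.043 and 0.040). In that fit 14.4% of all gene rows passed. CDH1, which encodes the adherens junction protein E-cadherin and was named after its values were seen, was at a mean of 0.105 FPKM in CTTN and 0.13 FPKM in control and was too low to test.

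Of 16 transcription factors known to act on junction genes 12 were tested and 0 passed (median -0.04). The most abundant were ELF3, at 228 FPKM in CTTN and 255 FPKM in control, and OVOL2, at 178 and 160 FPKM for a row shared with SNX5 whose OVOL2 part was not separated. Of the E-box repressors, named here after their values were seen, SNAI1 was at 4.87 and 4.45 FPKM (log2 fold change 0.12 ± 0.09, SE, edgeR adjusted p = 0.38), and SNAI2, ZEB1 and ZEB2 were listed at 0 in every library. Of the 6 luminal markers and the 14 markers of other cell types, 0 passed. With the length trend removed ERBB2 was called higher (0.28, edgeR adjusted p = 0.042) and KRT18, a luminal keratin, lower (-0.36, adjusted p = 0.016). The luminal keratin KRT19 went the other way and lay above control in every CTTN library (0.49 ± 0.17, SE, edgeR adjusted p = 0.12). It was at 0.24 with the length trend removed (adjusted p = 0.067). The basal marker TP63 was called higher in that fit (0.59, edgeR adjusted p = 0.0045), at a mean of 2.32 FPKM in CTTN and 1.80 FPKM in control. FN1, the most abundant of the markers of other cell types, had a lower CPM in every CTTN library than in any control library. Its log2 fold change was -0.65 ± 0.28 (SE, edgeR adjusted p = 0.17), and -0.31 with the length trend removed (adjusted p = 0.074). Its mean FPKM was 6.16 in CTTN and 6.12 in control. KRT18, TP63 and ACTA2, a smooth muscle actin that was above control in every CTTN library at under 1 FPKM (1.37 ± 0.31, SE, edgeR adjusted p = 0.059 as fitted), are named after their values were seen, and the part of such markers in the members' changes was not tested.

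The 5 genes whose pattern over the 6 libraries was most like that of CLDN7, the most abundant member, among 6872 genes at a mean of at least 10 FPKM, were ZNF706, TRAF4, SMPDL3B, KDELR1 and KIF22. The root mean square difference of their log2 CPM deviations from that of CLDN7 was between 0.014 and 0.019. All 5 were highest in CTTN replicate 3 and within or just above the control range in CTTN replicate 2, at log2 fold changes from 0.24 to 0.29, and they are between 1557 and 2638 bases long. The likeness is a description over 6 libraries that share the length trend.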

How the data were processed

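Poly(A) RNA of 6 SKBR3 samples was made into stranded TruSeq libraries and sequenced paired-end. The submitters' processing notes name bcl2fastq 2.20.0, Trimmomatic, STAR, Cufflinks and GRCh38. The study's methods name hg19 and Cutadapt instead. The deposited loci of all 10 genes overlapped the RefSeq GRCh38.p14 genes, so GRCh38 is used here. The authors deposited estimated counts, already divided by a size factor per library, and FPKM values, for genes, isoforms and start-site groups. The sample table deposited by the authors gives that size factor as a ratio and the total mass of each library as a score. Estimated counts are not whole and are shared out between overlapping isoforms and genes by a model.

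Estimated counts were rounded and fitted with edgeR 4.0.16 (R 4.3.3): TMM, filterByExpr, quasi-likelihood test, Benjamini-Hochberg adjustment over all features tested, called at adjusted p under 0.05. CPM are edgeR values. Alternatives were DESeq2 1.42.0 (also its size factors in edgeR), limma 3.58.1 on log2(FPKM + 1) or log2(FPKM + 0.1), no filter, counts multiplied back by the size factors, leaving out each library and a replicate block. Removal of a lowess trend on length and sums of isoforms by gene name were added after the data were seen. Scripts were tested on simulated data.

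The CTTN columns matched their samples' labels by name. The control columns did not match the labels' column names in full and are assigned to the control group as a whole, with replicate numbers from the deposited sample table. Members and gene lists were chosen with earlier results of these data known. Named were all members, genes of a list that passed or were among its 3 most abundant, and isoforms of at least 1 FPKM, at most 4 a gene. No interval from counting error is given, since the counts are model estimates. Some genes of the lists are not reported here.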

Additional observations from a re-analysis of the deposited data

How the results depend on the processing

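CLDN1 was lower in the CTTN cells under each of the 17 alternatives, with a log2 fold change between -0.99 and -0.77, but it lost the call under 6 of them: with limma on log2(FPKM + 1) and no filter (-0.77), with the control columns that the labels name (-0.97, the same fit as without control replicate 1), and without CTTN replicate 1 or any control library, where the values over all left-out libraries ran from -0.99 to -0.89. CLDN4 was higher under all 17 and gained the call with DESeq2 (0.53), with the length trend removed (0.41) and without CTTN replicate 2 or 3, with values from 0.38 to 0.65 over the left-out libraries. The row values near zero changed sign. The shared CLDN12 row went to 0.16 and OCLN to 0.10 with the length trend removed. The CLDN12 own-name sum changed sign under 0 of its 16 alternatives. It ran from -0.66 to -0.22 and was at -0.37 with the length trend removed. TJP3 went to 0.25 with limma on log2(FPKM + 1), filtered or not, and to 0.26 on log2(FPKM + 0.1). The shared F11R row went to -0.0055 with DESeq2 and -0.0036 with no filter, and the F11R own-name sum was at -0.31. Over the left-out libraries OCLN ran from -0.24 to 0.080 and F11R from -0.033 to 0.042. Of the 9 gene rows, 2 passed with DESeq2 and with the length trend removed, 0 with limma and no filter or with the control columns that the labels name, and 0 to 5 over the left-out libraries. Of all gene rows, 606 passed in the fit as reported, 1900 with DESeq2, 116 with limma on log2(FPKM + 1), 131 with limma on log2(FPKM + 0.1), 13 with limma and no filter, 29 with the control columns that the labels name, 2080 with the length trend removed and 15 to 6953 over the left-out libraries. Of the junction genes in the lists beyond the members (cell type markers not counted), 1 passed as reported, 5 with DESeq2, 9 with the length trend removed, 0 with each limma fit, 0 with the labels' control columns, and 0 to 33 over the left-out libraries. DESeq2 called 1 isoform and 2 start-site groups of the members, and edgeR 0 of either.

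By the replicate numbers of the deposited sample table, the correlation of deviations between same-numbered libraries was 0.05, 0.18 and -0.30. With CTTN replicates 1, 2 and 3 set beside control replicates 2, 3 and 1 it was 0.04, 0.33 and 0.44. The numbers of the control columns are not certain from the labels, so whether the samples were paired cannot be told from these values. With a replicate block by the sample table's numbers 109 gene rows passed, CLDN1 was at -0.94 (edgeR adjusted p = 0.041), no other member passed, and 0 genes of the other lists did. The causes of these differences were not tested. Each group has 3 libraries, 2 CTTN libraries carry a length trend, and CLDN1 rests on 194 to 427 estimated counts a library.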
